A study of Homo sapiens with 9 samples.

Results

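The histone genes of MP41 cells were taken from polyA RNA sequencing as every row whose symbol began with HIST1H, HIST2H, HIST3H, HIST4H, H1F, H2AF or H3F and did not end in P followed by digits. This gave 34 of the 14839 genes in the table, 22 cluster histone genes (symbols beginning with HIST) and 12 variant histone genes (H1F, H2AF and H3F). Of the cluster genes, 16 lay in the HIST1 cluster on chromosome 6, 4 in HIST2 and 2 in HIST3. GENCODE version 29 lists 71 protein-coding cluster genes and 16 protein-coding variant genes under these symbols, of which 20 and 11 had a row and the others were not analysed here. MP41 is a uveal melanoma line, so all libraries came from 1 line. Synthetic miR-16 or a control mimic, miR-CTR, was transfected into the cells at 66 nM with a lipid reagent, and RNA was taken after 6, 12, 24 and 48 h. A 0 h library that carries the miR-CTR label was the common start. Each of the 9 conditions had 1 library, so there is no replicate spread within a condition, and calls by size alone carry no test. The question was how mRNAs of the histone clusters and of the histone variants moved after miR-16. The logFC was the log2 value with miR-16 minus the log2 value with miR-CTR at the same time, early was the mean of 6 and 12 h, late was the mean of 24 and 48 h, and genes past 0.5 in size were called up- or down-regulated.

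The core histones H2A, H2B, H3 and H4 form the nucleosome, and the linker histone H1 binds the DNA between nucleosomes. Cluster genes are expressed in S phase, when new DNA has to be packaged. Most of their mRNAs end in a stem-loop that is bound by SLBP in place of a polyA tail, and they are degraded when replication stops. Variant genes lie outside the clusters, make mRNAs with a polyA tail through the cell cycle, and supply nucleosomes outside replication. Some cluster genes also make mRNAs with a polyA tail, from signals downstream of the stem-loop, and H2AFX can make both kinds. PolyA selection captures mRNAs with a tail, so a value of a cluster gene may cover part of its mRNA.

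The stem-loop is shown first because most cluster genes have it and most variants lack it, although the classes were set by symbol. In GENCODE version 29 (GRCh38), all 34 symbols matched an annotated gene, and a run of the 16 letters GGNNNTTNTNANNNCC was searched on the transcript strand. It was present in a transcript of 16 of the 22 cluster genes and of 1 variant gene, H2AFX. With the added demand that letters 1 to 6 pair fully with letters 11 to 16, it was present in 15 of 20 protein-coding cluster genes, in 1 of 11 protein-coding variant genes, and in 39 of all 11602 protein-coding genes matched (0.336%). The most common form was that of HIST1H2AC, shared by 10 cluster genes. The sequences below read from 5′ to 3′, with the 16 letters in capitals.
HIST1H2AC, chr6:26124669-26124684, forward strand: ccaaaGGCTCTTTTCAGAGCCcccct
HIST1H2BD, chr6:26158587-26158602, forward strand: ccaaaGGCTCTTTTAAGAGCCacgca
HIST1H4J, chr6:27824459-27824474, forward strand: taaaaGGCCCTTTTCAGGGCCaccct
HIST1H3E, chr6:26225596-26225611, forward strand: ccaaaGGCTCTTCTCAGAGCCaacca
HIST2H2BD, chr1:149843495-149843510, forward strand: ccaaaGGCTCTTTTCAGGGCCactta
H2AFX, chr11:119094898-119094913, reverse strand: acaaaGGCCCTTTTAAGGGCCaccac
In HIST2H2BD, which is annotated as a pseudogene, the stem did not pair fully. The other 5 forms shown did.

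Annotated transcripts were also searched for a polyA signal, with which a cluster mRNA could carry a tail. The hexamer AATAAA or ATTAAA was found within the last 40 bases of a transcript in 14 of the 22 cluster genes, in 13 of them beside a transcript with the stem-loop, and in 12 of the 12 variant genes. Over all protein-coding genes the share was 90.7%. The search did not ask that the hexamer follow the stem-loop. In HIST1H4J the only transcript ended 6 bases past the stem-loop, so its hexamer did not lie after it. In HIST1H2AC the longest transcript ran 1128 bases past the stem-loop, in HIST1H3E 1862 bases, and in H2AFX 1044 bases. In contrast, the annotated transcripts of HIST1H1C and HIST1H2BK ended with the coding sequence, so for both genes the annotation holds no 3′UTR in which either feature could be found.

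The sites of miR-16 are shown because all late calls fell on members with such a site. The mature miR-16-5p is encoded on chromosome 13 and on chromosome 3 (chr13:50049027-50049048, reverse strand, and chr3:160404754-160404775, forward strand, RefSeq on GRCh38.p14). Capitals mark the seed, bases 2 to 8.
miR-16-5p: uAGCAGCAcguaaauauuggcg
Sites on the longest protein-coding transcript, or the longest transcript where none codes, were exact matches on the transcript strand to TGCTGCT (7mer-m8), the same followed by A (8mer), or GCTGCTA (7mer-A1). The site of HIST1H3E, which was up-regulated late, is a 7mer-m8 in its 3′UTR and is not shown. The 4 sites below are those of the other late calls and all lie in coding sequence, with the match in capitals.
HIST1H1C 8mer, chr6:26055858-26055865, reverse strand: gccaaaagTGCTGCTAaggctgtg
HIST1H2BJ 7mer-m8, chr6:27132443-27132449, reverse strand: cgtgcgccTGCTGCTgcctgggg
HIST1H2BL 7mer-m8, chr6:27807599-27807605, reverse strand: cgtgcgccTGCTGCTtccggggg
H2AFX 7mer-m8, chr11:119095045-119095051, reverse strand: ccaggccgTGCTGCTgcccaaga
The H2B site recurred with nearly the same flanks in the coding sequence of 9 of the 10 H2B rows, and the H2AFX site recurred in H2AFJ with the same flanks. A site of any kind was found in 11 of 20 protein-coding cluster genes (55%), 6 of 11 protein-coding variant genes (54.5%) and 58.4% of all protein-coding genes matched. A coding 7mer-m8 or 8mer was found in 10 of 20 cluster genes (50%), against 34.3% of all.

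The variants were far more abundant than the cluster genes in these libraries. Per kilobase of annotated exon at 0 h, the median was 672 normalised reads over the variant genes and 40.3 over the cluster genes. H2AFZ, the variant H2A.Z found at promoters, had the highest level per kilobase of all members, 8758 normalised reads. HIST1H2BK, an H2B gene, led the cluster genes with 3669 on this scale, above every variant but H2AFZ. HIST1H1C, a linker histone gene, had 883. For HIST1H2BK and HIST1H1C this scale refers to the coding sequence alone. Of the 22 cluster genes, 17 lay in the lowest 25% of all genes by mean value (up to 7.02 on the log2 scale), and so did 2 variant rows, H2AFY2 and H1FX-AS1. The reads behind such members were few. HIST1H2BL rested on 7 to 29 reads per library, whereas H2AFZ rested on 9679 to 19669.

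Late, the summed level with miR-16 lay below that with miR-CTR for the variants and above it for the cluster genes. The variant sum was 47840 normalised reads at 0 h. At 6, 12, 24 and 48 h the miR-CTR libraries had 46191, 43297, 38353 and 37760. The miR-16 libraries had 44915, 45183, 37041 and 30940. It was lower at each later time than at 0 h with either mimic, and the lowest library was miR-16 at 48 h. The cluster sum was 4077 at 0 h, and 3789, 3872, 3864 and 3721 with miR-CTR. With miR-16 it was 3580, 3735, 4033 and 3985. Relative to miR-CTR, the cluster sum with miR-16 was thus lower at 6 and 12 h and higher at 24 and 48 h. The late logFC of the sum was −0.17 for the variants (counting SE 0.0076) and 0.08 for the cluster genes (counting SE 0.0231). These standard errors come from the reads and cover counting error only. The sign of the cluster sum rested on HIST1H2BK, since without it the late value was −0.04. Without H2AFZ, the most abundant variant, the late value of the variant sum was −0.089.

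**Figure D1:**
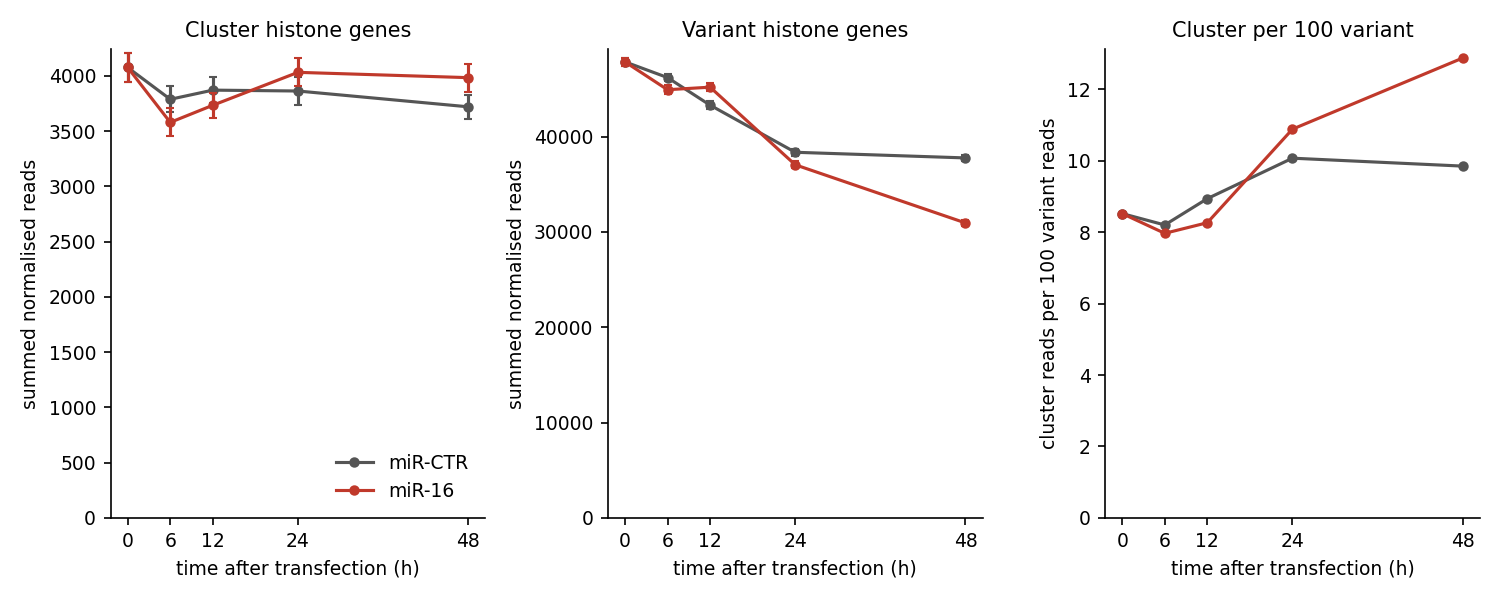
Summed normalised reads of the 22 cluster and the 12 variant histone genes, and cluster reads per 100 variant reads, against hours after transfection (1 library per point, 95% counting intervals on the sums). The variant sum with miR-16 ends at 30940 against 37760 with miR-CTR, and the ratio at 12.9 against 9.85.

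The ratio of the classes within a library does not depend on the scale between libraries. It was 8.52 cluster reads per 100 variant reads at 0 h. With miR-CTR it was 8.20, 8.94, 10.1 and 9.85 at the later times, and with miR-16 7.97, 8.27, 10.9 and 12.9. The ratio with miR-16 was below that with miR-CTR at 6 and 12 h and above it at 24 and 48 h. H2AFZ alone made up 42.2% of the variant sum at 0 h and 33.1% with miR-16 at 48 h. The top 3 cluster genes, HIST1H2BK, HIST1H1C and HIST1H2AC, held between 66.6% and 70.3% of the cluster sum. The ratio without H2AFZ or HIST1H2BK was not computed.

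Among the variants, 1 gene was called late. H2AFX encodes H2A.X, the histone whose phosphorylated form marks DNA breaks. Its level was 11.62 at 0 h, then 11.78, 11.36, 10.99 and 10.80 with miR-CTR and 11.67, 11.33, 10.58 and 9.87 in the miR-16 libraries. The level was lower at 24 and 48 h than at 0 h with both mimics, and at every time the miR-16 library was below its miR-CTR counterpart. The difference was −0.11 at 6 h and −0.93 at 48 h. This gave a late logFC of −0.67 (counting SE 0.038). So 1 of 12 variants was down-regulated late and 0 of 12 up-regulated, against 5.73% of all genes down and 7.76% up. H2AFX was past −0.5 at 48 h but not at 24 h, where its logFC was −0.41.

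The other H2A variants were on the same side without passing 0.5. H2AFZ was at 14.30 at 0 h, 14.16, 14.05, 13.78 and 13.80 with miR-CTR, and 14.05, 14.14, 13.63 and 13.32 in the miR-16 libraries. Its late logFC was −0.32 (counting SE 0.013). H2AFV, the second gene for H2A.Z, was at 12.03 at 0 h, at 11.96 and 11.93 with miR-CTR at 24 and 48 h, and at 11.80 and 11.49 with miR-16, for a late logFC of −0.30. Both genes of H2A.Z thus had nearly the same late logFC. H2AFJ, a replication-independent H2A gene, had a late logFC of −0.14. H2AFY and H2AFY2, which encode macroH2A forms tied to silent chromatin, had −0.04 and −0.06, the second on 26 to 78 reads per library. All 6 H2A variants had a late logFC below 0, between −0.67 and −0.04, and their summed late logFC was −0.29. At 24 h alone H2AFJ, H2AFY and H2AFY2 were above 0, at 0.09, 0.07 and 0.14.

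The genes of H3.3, the H3 variant loaded outside replication, lay on the other side of 0. H3F3A was at 11.07 at 0 h, at 10.95 and 11.18 with miR-CTR at 24 and 48 h, and at 11.24 and 11.22 with miR-16. H3F3B went from 12.76 at 0 h to 12.62 and 12.41 with miR-CTR and to 12.69 and 12.55 with miR-16. Their late logFC were 0.17 and 0.10, and that of H3F3C, a primate copy of the H3.3 gene, was 0.11. None of the H3 genes was past 0.5. Some reads of these genes can be shared with copies. Of their 31-mers (runs of 31 bases), H3F3A shared 12.2% with transcripts of other genes, H3F3B 6.9% and H3F3C 36.8%. H3F3AP4, a pseudogene row left out by the symbol rule and the main partner of H3F3A, had a level of 10.80 at 0 h and a late logFC of 0.18. The level of H3F3AP4 was close to that of H3F3A, which does not by itself show shared reads. The linker histone genes H1F0, abundant in cells that leave the cycle, and H1FX had late logFC of −0.15 and −0.12. H1FX-AS1, the antisense RNA of H1FX, had 0.28 on 17 to 38 reads, and its exons overlap those of H1FX on the opposite strand. Whether the counting used strand is not given in the sources used here.

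**Figure D2:**
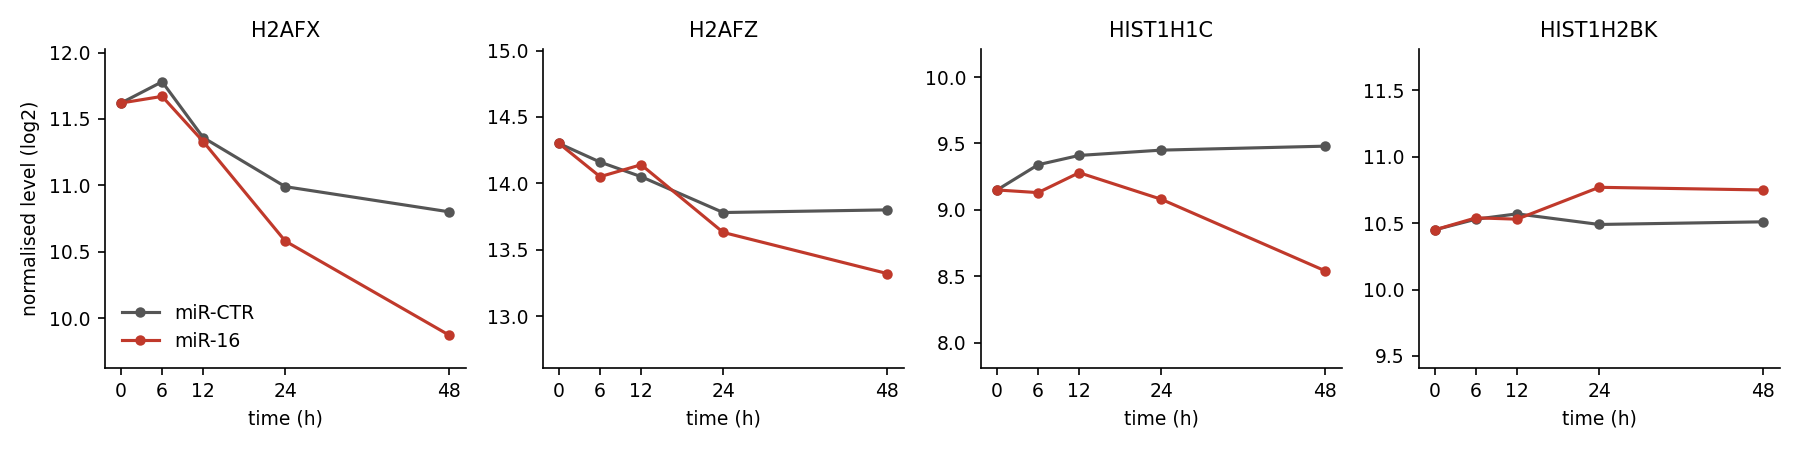
Normalised log2 level of H2AFX, H2AFZ, HIST1H1C and HIST1H2BK against hours after transfection, with miR-CTR in grey and miR-16 in red (1 library per point, the same span on each y axis). With miR-16 at 48 h H2AFX is at 9.87 and HIST1H1C at 8.54, below miR-CTR, whereas HIST1H2BK is at 10.75 and above it.

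Of the 22 cluster genes, 2 were down-regulated late, against 5.73% of all genes. HIST1H1C encodes the linker histone H1.2. Its level was 9.15 at 0 h, 9.34, 9.41, 9.45 and 9.48 with miR-CTR, and 9.13, 9.28, 9.08 and 8.54 in the miR-16 libraries. All 4 miR-CTR libraries were above 0 h, the miR-16 library was below its miR-CTR counterpart at each time, and the difference at 48 h was −0.94. This gave a late logFC of −0.66 (counting SE 0.062), which was below −0.5 at 48 h but not at 24 h (−0.37). HIST1H2BJ, an H2B gene, had a late logFC of −0.80 (counting SE 0.333) on 9 to 30 reads per library. Its levels were 4.77 and 4.53 with miR-CTR and 4.31 and 3.39 in the miR-16 libraries at 24 and 48 h. The lowest of its libraries was miR-16 at 48 h, with 9 reads, and at 24 h its logFC of −0.46 was within the threshold.

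Also 2 of the 22 cluster genes were up-regulated late, against 7.76% of all genes. HIST1H3E, an H3 gene, was at 5.58 at 0 h, at 5.49, 5.69, 5.74 and 5.90 with miR-CTR, and at 5.62, 5.69, 6.28 and 6.55 in the miR-16 libraries. The 2 late miR-16 libraries were its highest, and the late logFC was 0.60 (counting SE 0.173) with values past 0.5 at both 24 and 48 h. HIST1H2BL, an H2B gene, had a late logFC of 0.87 (counting SE 0.384) at levels of 3.06 and 3.60 with miR-CTR and 4.24 and 4.16 in the miR-16 libraries, on 7, 13, 17 and 16 reads. Its miR-CTR level was 4.74 at 12 h, above both late miR-16 levels, so its groups of libraries overlapped. HIST1H2BL, HIST1H3E and HIST1H2BJ are in the lowest 25% of all genes, where 19.1% of 3711 genes were up-regulated and 8.52% down-regulated late, against 3.96% and 4.81% of the others.

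The other abundant cluster genes stayed within 0.5. HIST1H2BK was at 10.45 at 0 h, 10.53, 10.57, 10.49 and 10.51 with miR-CTR, and 10.54, 10.53, 10.77 and 10.75 in the miR-16 libraries. Its libraries lay close together until 12 h, and both late miR-16 libraries were above all others, with a late logFC of 0.26 (counting SE 0.036). It shared 86.3% of its 31-mers with transcripts of other genes, first H2BFS, so its reads are uncertain. HIST1H2AC, an H2A gene, was at 9.55 at 0 h and at or below 9.19 in all later libraries, with 8.80 and 9.19 at 48 h and a late logFC of 0.14. HIST3H2A, an H2A gene outside the chromosome 6 cluster, had a late logFC of 0.41 (counting SE 0.1) and 0.73 at 48 h, where its level was 7.30 with miR-CTR and 8.03 in the miR-16 library. The H4 genes HIST1H4J and HIST1H4K, which share 82.2% and 100% of their 31-mers with other genes, had late logFC of 0.06 and −0.04. Late logFC were −0.02 for HIST1H2BC, −0.03 for HIST1H2BD and 0.10 for HIST2H2AA3, whose 31-mers are all shared with other genes and first with HIST2H2AA4. HIST1H3PS1, annotated as a pseudogene, had −0.04. The remaining cluster genes ran from −0.47 for HIST2H2BD to 0.47 for HIST1H2BN. A 95% counting interval of the late logFC lay above 0 for 6 cluster and 2 variant genes and below 0 for 2 cluster and 6 variant genes. Such intervals cover counting error only and are narrow for abundant genes. The median counting SE was 0.19 over the cluster genes and 0.03 over the variants. The share of all genes with an interval beside 0 was not computed, so these counts do not set the members apart. The late median was 0.17 over the cluster genes and −0.10 over the variants, against 0.01 over all genes.

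**Figure D3:**
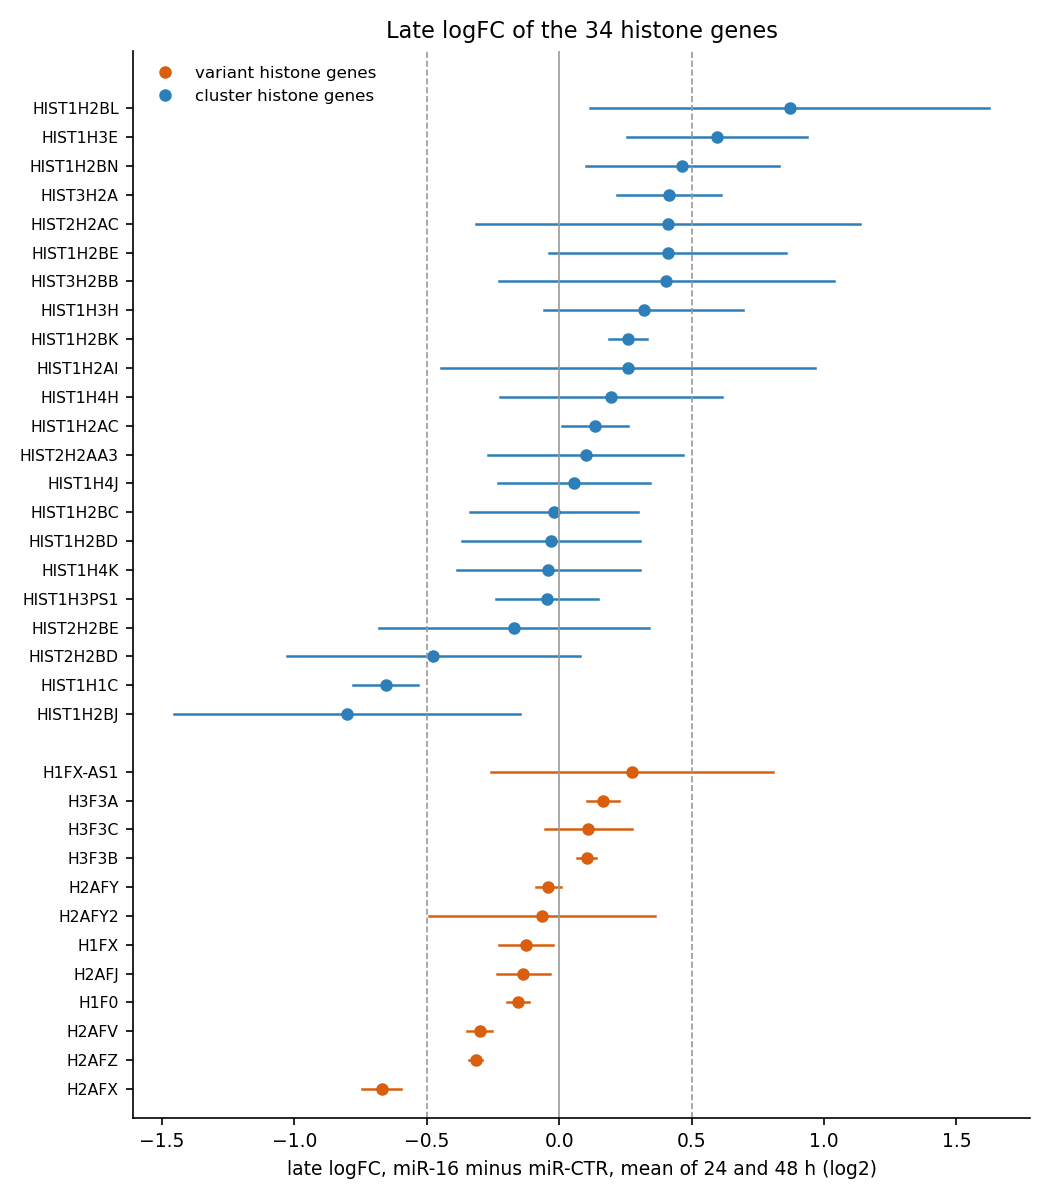
Late logFC of each histone gene (points) with 95% counting intervals (lines), variants in orange and cluster genes in blue, and dashed lines at 0.5 and −0.5. H2AFX at −0.67 is the lone variant outside the dashed lines, and the wide intervals belong to cluster genes with few reads.

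Summed by histone type, the cluster genes did not move as one. The late logFC of the sum was −0.66 for H1 (HIST1H1C alone), 0.22 for 5 H2A genes, 0.23 for 9 H2B genes, 0.48 for 2 H3 genes and 0.04 for 3 H4 genes. For the variants it was −0.15 for 2 H1 genes, −0.29 for 6 H2A genes and 0.12 for 3 H3 genes. Linker histone values were thus below 0 in both classes, H3 values above 0 in both, and H2A values on opposite sides of 0. The cluster H2A sum owed this to 48 h, where it was 672 with miR-CTR and 920 in the miR-16 library, whereas at 24 h it was 840 and 831. The cluster H3 sum rested on levels of 106 and 103 with miR-CTR and 141 and 151 in the miR-16 libraries, and both its genes, HIST1H3E and HIST1H3H, had late logFC above 0.

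At 48 h alone more members were past 0.5. There 6 of 22 cluster genes were up-regulated, against 10.4% of all genes, and 3 of 22 cluster genes and 1 of 12 variants were down-regulated, against 8.96%. No variant was up-regulated at 48 h. Of the 22 cluster genes, 17 lay in the lowest 25% of all genes by mean value. In that part 19.1% of genes were up-regulated in the late window, against 3.96% of the others, and its share at 48 h alone was not computed. The median logFC at 48 h was 0.32 over the cluster genes and −0.25 over the variants. At 24 h the medians were 0.10 and 0.07.

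The 4 times can also be taken as blocks, which tests 1 mean difference over 6 to 48 h against its spread between times. In this limma fit over the 8 time-matched libraries, chosen after seeing the data, 0 of 34 members passed an adjusted p of 0.05, against 4.93% of all genes up and 5.72% down. At an unadjusted p under 0.05 there were 3 cluster genes up and 1 down, and 1 variant up and 2 down. At the same cut of the limma fit, 2209 of all 14839 genes were up and 2298 down, so these counts do not set the members apart. The lowest adjusted p of a member in the limma fit was 0.053, for HIST1H1C, with a mean logFC of −0.41 (SE 0.119), below 0 at 4 of 4 times. H2AFX had −0.37 (SE 0.123, adjusted p = 0.0807 in the limma fit), also below 0 at 4 of 4 times. The 4 times are 1 course and not replicates, and a difference that grows with time adds to the error of this fit.

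Early, HIST1H2BN, an H2B gene, was the only one of the 34 members past 0.5, so 1 of 22 cluster genes was up-regulated, against 2.04% of all genes and 6.55% of the lowest 25%, and 0 of 34 members were down-regulated, against 1.45%. Its level was 5.41 at 0 h, 5.52 and 5.33 with miR-CTR at 6 and 12 h, and 5.78 and 6.13 with miR-16. The early logFC was 0.53 (counting SE 0.2), on 41 to 75 reads, and its late logFC was 0.47. Annotated transcripts of HIST1H2BN overlap HIST1H2AK and HIST1H2AL. The early median was −0.02 over the cluster genes and −0.02 over the variants, and the early logFC of the sum was −0.07 and 0.01.

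Each mimic was also set against the 0 h library. These 4 late libraries share 1 reference, so the values are given side by side. The percentages are over all genes, whereas 17 of the 22 cluster genes lay in the lowest 25% by mean value, for which no share against 0 h was computed. With miR-CTR, 6 of 22 cluster genes and 2 of 12 variants were late below −0.5, against 9.79% of all genes, and 0 of 34 members were above 0.5, against 11.0%. The 2 variants were H2AFX at −0.72 and H2AFZ at −0.51. Among the 6 cluster genes were HIST1H4J at −0.80, HIST1H2BD at −0.73, HIST1H2AC at −0.60 and HIST2H2AA3 at −0.55. With miR-16, 4 cluster genes and 2 variants were below −0.5, against 11.7% of all genes, and 4 cluster genes were above 0.5, against 14.1%. The variants were again H2AFX and H2AFZ, at −1.40 and −0.82. Of the 4 cluster genes, HIST1H4J and HIST1H2BD were below −0.5 with both mimics, and the others were HIST1H2BJ at −0.96 and HIST2H2BD at −0.91. The 4 above 0.5 were HIST1H3E at 0.83, HIST1H2BN at 0.76, HIST1H3H at 0.69 and HIST1H2BE at 0.64, and with miR-CTR they were at 0.24, 0.29, 0.38 and 0.23. Of the changes that made up the logFC of HIST1H1C, 0.32 was with miR-CTR, above 0 h, and −0.34 with miR-16, below 0 h.

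**Figure D4:**
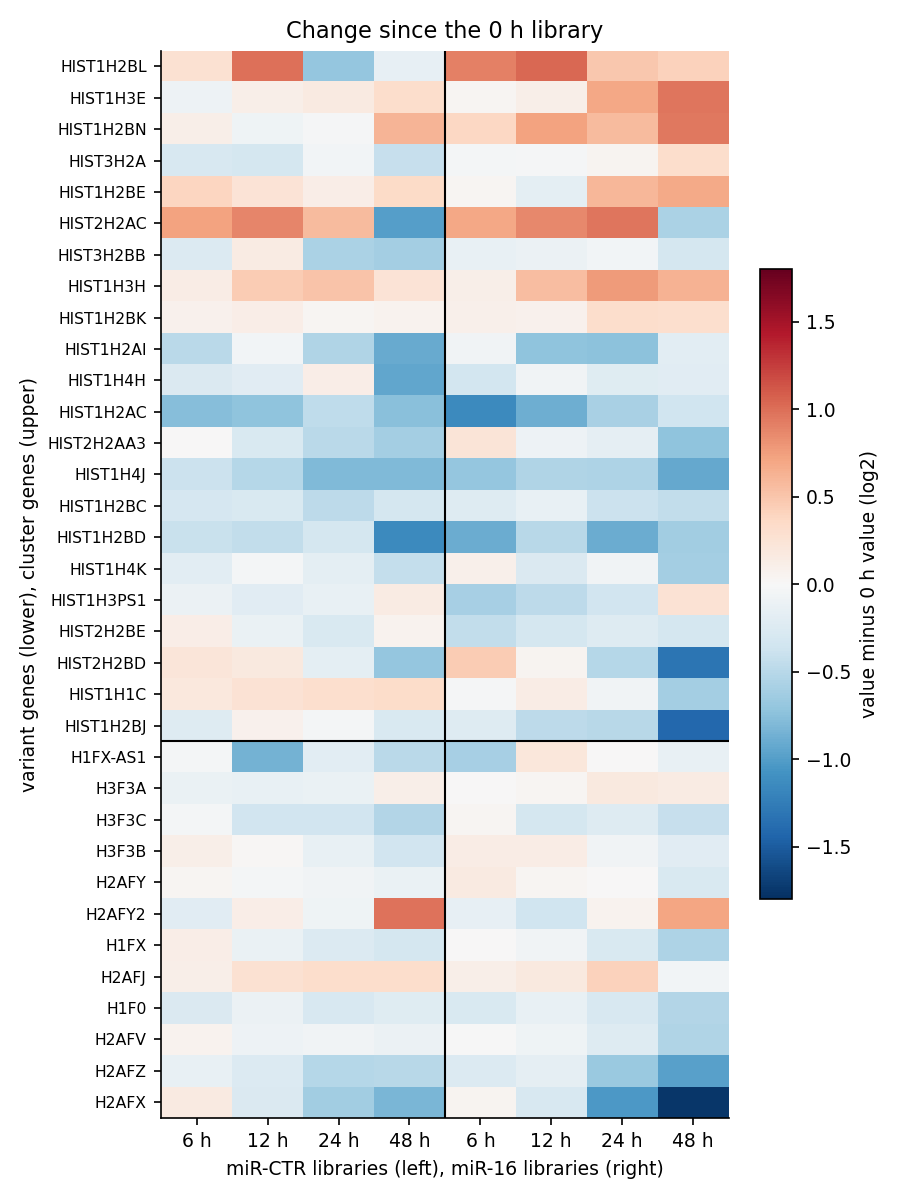
Change since the 0 h library (log2, colour) of the 34 histone genes in the 4 miR-CTR libraries (left) and the 4 miR-16 libraries (right), ordered by late logFC within each class. The darkest blue field is H2AFX with miR-16 at 48 h, and HIST1H2AC and HIST1H2BD are blue with both mimics from 6 h on.

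The late calls were set beside the features of the transcripts as a description. All 5 members called late were among the 18 with a miR-16 site, 2 up and 3 down, and the 16 members without a site had late logFC between −0.32 and 0.41. Among all protein-coding genes, 6.95% of 6779 with a site and 3.38% of 4823 without one were down-regulated, and 5.80% and 7.11% were up-regulated. The 9 H2B cluster genes with the coding 7mer-m8 had late logFC from −0.80 to 0.87 with a median of 0.26, and H2AFJ, which has the site of H2AFX, was at −0.14. HIST1H3E has a 7mer-m8 in its 3′UTR and was up-regulated. By 3′ end, the 16 cluster genes with a stem-loop had a median late logFC of 0.23 and the 6 without had −0.04. The cluster genes with and without a terminal hexamer had medians of 0.12 and 0.26. For 4 cluster genes, HIST1H1C, HIST1H2BK, HIST2H2AC and HIST1H4K, the annotation holds no 3′UTR, so they count as without either feature. Both splits thus partly sort genes by how complete their annotation is. H2AFX, the variant with a stem-loop, was down-regulated.

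Members that start next to each other on opposite strands were also compared, since such H2A and H2B pairs share the DNA between their starts. There were 5 pairs with 139 to 323 bases between starts. HIST3H2A and HIST3H2BB had late logFC of 0.41 and 0.41, the closest pair. HIST1H2BC and HIST1H2AC had −0.02 and 0.14, and HIST1H2BL and HIST1H2AI 0.87 and 0.26. HIST2H2AA3 had 0.10 and its neighbour HIST2H2BD −0.47. HIST2H2BE had −0.17 and HIST2H2AC 0.41. In 3 of the 5 pairs the values lay on opposite sides of 0, but the 95% counting interval of the lower value included 0 in each. It ran from −0.34 to 0.30 for HIST1H2BC, from −0.68 to 0.34 for HIST2H2BE and from −1.03 to 0.08 for HIST2H2BD. The opposite sides are thus uncertain.

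Genes that make and handle histones were read from lists. Of 27 genes of S phase and its onset, 16 were down-regulated late and 0 up-regulated, with a median of −0.52, against 5.73% of all genes down and 7.76% up. At 48 h 24 of 27 were down-regulated, against 8.96% of all genes. The lowest was CDC25A, the phosphatase that drives entry into S phase, at −1.21. Of 21 measured factors of histone mRNA transcription, 3′ end processing and decay, 1 was down-regulated late and 0 up-regulated, with a median of −0.05, against the same 5.73% and 7.76% of all genes. This was LSM11, a protein of the U7 particle that cuts cluster mRNAs after the stem-loop. LSM11 was at 8.90 at 0 h, 9.17 and 9.49 with miR-CTR at 24 and 48 h, and 8.41 and 8.27 with miR-16, a late logFC of −0.99 (counting SE 0.07). It was lower with miR-16 at all 4 times, and by −0.53 and −0.39 at 6 and 12 h. Its 3′UTR holds 2 8mers, shown here with the match in capitals.
LSM11 first 8mer, chr5:157755310-157755317, forward strand: gcatgaatTGCTGCTAtgctgtat
LSM11 second 8mer, chr5:157760619-157760626, forward strand: gggagaatTGCTGCTAgtaaggtc
The highest of this list was LSM10, the partner of LSM11 in the particle, at 0.20. SLBP, which binds the stem-loop, was at −0.20, NPAT, which activates the cluster genes, at −0.02, and CASP8AP2, which sits with NPAT at the clusters, at −0.45.

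Of 24 histone chaperones and loading factors, 4 were down-regulated late and 0 up-regulated, with a median of −0.16, and of all genes 5.73% were down and 7.76% up. ASF1B, the H3 and H4 chaperone of dividing cells, had −0.84, with levels of 9.85 and 10.01 with miR-CTR and 9.35 and 8.83 in the miR-16 libraries at 24 and 48 h. CHAF1A, the large subunit of the complex that loads H3 and H4 onto new DNA, had −0.70. ANP32E, which removes H2A.Z, had −0.53 and an 8mer in its 3′UTR, and HJURP, which loads the centromere H3, had −0.52. Other genes of this list with 8mers were not called. UBN2, with 8mers in its 3′UTR, was at −0.395. IPO4 and SRCAP, with 8mers in coding sequence, were at −0.065 and −0.2. The centromere H3 itself, CENPA, had −0.59, with 9.51 and 9.54 with miR-CTR and 9.14 and 8.73 in the miR-16 libraries. The highest was ASF1A, the other form of ASF1, at 0.24. The forms of ASF1 thus lay on opposite sides of 0.

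**Figure D5:**
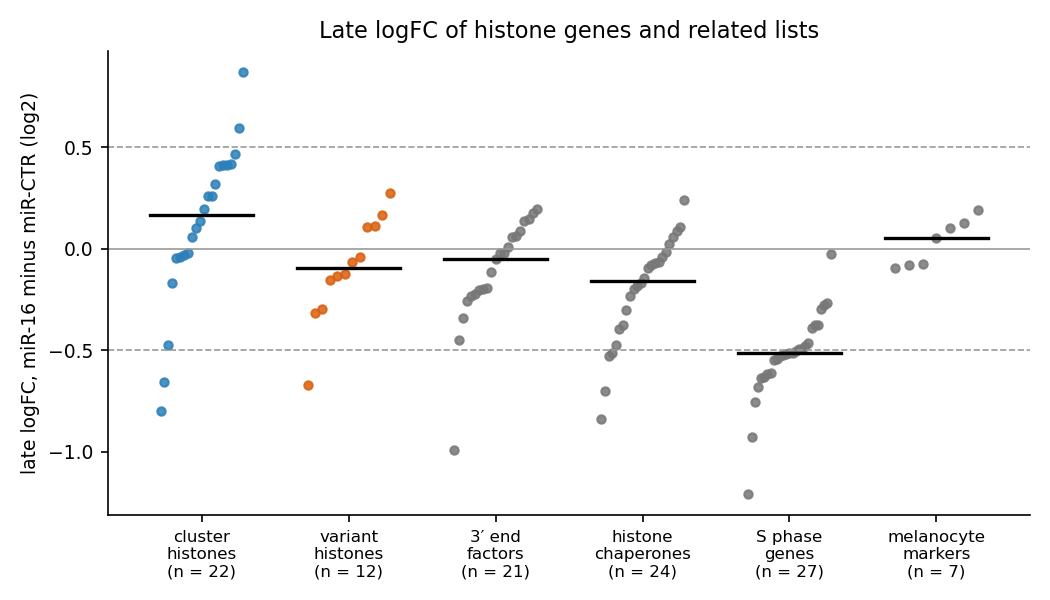
Late logFC of each gene (points) and the median (black line) for cluster and variant histone genes and 4 lists, with dashed lines at 0.5 and −0.5. The S phase genes have a median of −0.52 and all lie below 0, whereas the cluster histone genes spread from −0.80 to 0.87 around a median of 0.17.

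Profiles over the 9 libraries were compared with the mean profile of the S phase genes. The mean deviation of these genes was highest with miR-CTR at 6 h (0.43) and lowest with miR-16 at 48 h (−0.83). Pearson's r was 0.98 for H2AFV, 0.97 for H2AFX, 0.93 for H1FX, 0.91 for HIST2H2BD and 0.89 for H2AFZ. At the other end were HIST1H3E at −0.95, HIST1H2BK at −0.76 and HIST1H3H at −0.75. The median was 0.67 over the variants and 0.19 over the cluster genes, and 5 of 12 variants and 2 of 22 cluster genes were above 0.8. The median and share over all genes were not computed, so likeness to the S phase profile is not shown to be particular to these members. These values describe 9 libraries that share 1 start and 1 time course, and counting error alone pulls r towards 0 in genes with few reads. Without the miR-16 library at 48 h, r was 0.94 for both H2AFV and H2AFX, 0.76 for H2AFZ, −0.88 for HIST1H3E and −0.04 for HIST1H1C, which had 0.70 with it. The medians were then 0.525 over the variants and 0.094 over the cluster genes, 3 variants and 0 cluster genes were above 0.8, and HIST1H2BJ, which had been above it, was at 0.455. In bulk RNA, fewer cells in S phase and less of an mRNA per cell cannot be told apart.

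Between 20270000 and 27370000 reads were recovered per library, and the median gene was at 9.13 to 9.17 in all 9. The 7 melanocyte markers were high at 0 h, from 12.29 for DCT to 17.88 for TYRP1, and 0 of 7 were past 0.5 late, from −0.10 for DCT to 0.19 for PMEL. Of 32 RNAs known to lack a polyA tail or to have a short one, 4 had a row, and they bear on the tail selection. RN7SL2 was at 8.05 at 0 h and between 6.07 and 8.28 in the other libraries but for miR-16 at 24 h, where it was at 10.15. RN7SK ran from 3.35 to 4.84, with a late logFC of 0.58 on few reads, and the mitochondrial rRNAs MT-RNR1 and MT-RNR2 had −0.18 and −0.06. The part of tail selection in the cluster values was not tested.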

How the data were processed

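PolyA RNA of MP41 cells was sequenced by the authors in 9 libraries, 1 per condition. According to the submitters' processing notes the tools were FastQC, STAR 2.4.0a and featureCounts of Subread 1.5.0-p3, with hg38 (GRCh38). The annotation, the filter on low genes, the strand setting and the normalization are not given in the sources used here. The deposited values are log2(normalised reads + 1) with 2 decimals, as read from the values: on the linear scale and less 1, 100% of the values up to 5 came out as whole multiples of 1 step per library, between 0.8531 and 1.1494, within the rounding of 0.005 on the log2 scale. Dividing by it recovered the reads used for counting errors, which cover counting error only. No label states which time the column numbers stand for, and the numbers were matched to the times in rising order.

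Calls by size carry no p-value, since each condition had 1 library. Adjusted p-values come from limma 3.58.1 (R 4.3.3, time as block, trended variance, Benjamini-Hochberg over all genes), a fit of the 8 libraries from 6 to 48 h added after seeing the data. Classes were summed as 2 to the power of the value minus 1. Positions, exons, 31-mers and sites came from GENCODE version 29 (GRCh38) and miR-16 from RefSeq. Python 3.11.15, pandas 2.3.3, numpy 2.4.6 and matplotlib 3.10.9 were used, and the calls were tested on simulated data. For the calls by size, the simulated libraries held counting error only, so variation between libraries was not covered. The members and lists were chosen with earlier results of these data known. Named were all variants, the 10 cluster genes with the highest mean, every member past 0.5 early or late, the ends of each class and list, and SLBP, NPAT, CASP8AP2, ASF1B, CENPA and HJURP. The upper end of the S phase list is not reported here. Other members named in the text were chosen after their values were seen. Alternatives were quantile normalization, median-gene centring, a 1.5-fold threshold, no genes of the lowest 25%, 0 h as the reference, single times, both times past the threshold, members without antisense and pseudogene symbols, H2AFX with the cluster genes, and other class sums.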

Additional observations from a re-analysis of the deposited data

Results flagged for a closer look

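The summed level of the cluster histone genes had a logFC below 0 at both early times (−0.08 and −0.05) and above 0 at both late times (0.06 and 0.10), with a late logFC of 0.08. The same pattern of opposite signs was seen for HIST1H2BE, at −0.36 and −0.41 early and 0.48 and 0.34 late (late logFC 0.41), and for HIST2H2AC, at −0.04 and −0.01 early and 0.40 and 0.42 late (late logFC 0.41). The difference between the windows was not tested. Over all genes 1092 of 14839 (7.36%) had opposite signs in this sense, and among the members 2 of 22 cluster genes (9.09%) and 0 of 12 variants.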

How the results depend on the processing

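Of 42 alternative values of the 6 calls, 31 remained past the threshold in the same direction and 11 did not. HIST1H3E was called under each of its 7 alternatives (0.50 to 0.84), H2AFX under 5 (−1.40 to −0.41) and HIST1H1C under 4 (−0.94 to −0.34). At single times the late cluster count was 4 up and 1 down at 24 h and 6 up and 3 down at 48 h, the cluster median 0.10 and 0.32, the variant count down 0 and 1, the variant median 0.07 and −0.25, and the variant sum −0.05 and −0.29. Over all 14839 genes, 1075 were up and 781 down at 24 h, and 1541 and 1330 at 48 h. No such share was computed for the lowest 25% of genes, which hold most cluster genes. At 6 h and 12 h the cluster count down was 1 and 2, the variant count down 1 and 0 and up 0 and 1, the variant median −0.01 and 0.04, and the variant sum −0.04 and 0.062. Among all genes, 502 were up and 495 down at 6 h, and 491 and 376 at 12 h. With 0 h as the reference the early values were 3 up and 4 down for the cluster genes, sum −0.16, variant median −0.082 and variant sum −0.087. The late ones were 4 up and 4 down, median −0.25 and sum −0.024 for the cluster genes, and 2 down, median −0.23 and sum −0.50 for the variants. Against this reference, 436 of all genes were up and 452 down early, and 2095 and 1736 late. Without the lowest 25% of genes, the early cluster count up was 0 and median −0.17, the late cluster counts 0 up and 1 down, and the variant median −0.13. With both times past the threshold, the early count up and the late counts down were 0. A 1.5-fold threshold left 0 early calls. Quantile normalization gave a late variant sum of −0.14, a cluster median of 0.078 and 3 cluster genes down. Without antisense and pseudogene symbols the late variant median was −0.12. With H2AFX among the cluster genes their late sum was −0.12, and the variants had 0 down, a median of −0.065 and a sum of −0.15. Without their most abundant member the late sums were −0.042 (cluster) and −0.089 (variant), and the mean of log2 values was −0.10 for the variants. Chosen after seeing the data, leaving out members that share over 50% of 31-mers gave cluster sums of −0.12 early and −0.06 late. Outside the calls, HIST1H4J was at −0.74 with 0 h as the reference, H1FX-AS1 at −0.57 at 6 h against 1.05 at 12 h, and HIST1H2BD at −0.58 at 24 h against 0.52 at 48 h. The causes were not tested. Also chosen after seeing the data, the limma fit over 4 times with time as block called 0 members up and 0 down at an adjusted p under 0.05 (unadjusted, 4 up and 3 down over both classes). This fit called 731 of all 14839 genes up and 849 down by adjusted p, and 2209 and 2298 unadjusted. No analysis paired by replicate number was possible because each condition had 1 library.

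Depth limits the cluster genes: the median counting SE of the late logFC was 0.19 over them and 0.03 over the variants.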

Other observations

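The rows left out by the symbol rule as pseudogenes of variant genes had late logFC of 0.18 for H3F3AP4, 0.22 for H3F3AP6, −0.19 for H3F3BP1 and −0.27 for H2AFZP3, at mean levels of 10.9, 9.22, 6.66 and 7.83. H3F3AP4 and H3F3AP6 thus had late values near that of H3F3A (0.17), and H2AFZP3 near that of H2AFZ (−0.32), whereas H3F3B was at 0.10. How far these rows hold reads of the parent genes was not tested.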
